A study of Mus musculus with 15 samples.

Results

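The oncofetal RNA-binding and MYC family genes examined here were Igf2bp1, Igf2bp2, Igf2bp3, Lin28a, Lin28b, Hmga1, Hmga2, Myc, Mycn and Mycl. They were chosen by name, through the Ensembl identifiers that GENCODE pairs with these symbols, and make up 10 of the 46679 genes in the deposited tables. RNA was sequenced from whole tumor tissue of C57BL/6 mice carrying 1 of 4 syngeneic glioblastoma lines in the right hemisphere, and from naïve brain of mice that received no tumor, with 3 mice in each of the 5 groups. Mice were 6 to 8 weeks old when 100000 CT2A, GL261 or 005 cells or 500000 Mut3 cells were implanted, and tumors were taken after PBS perfusion at the humane end point. CT2A and GL261 came from tumors induced with methylcholanthrene, CT2A with wild-type p53 and GL261 with mutant p53. 005 arose from activation of H-ras and AKT in mice with 1 intact p53 allele, and Mut3 from a model with inactivated NF1 and p53. The tumor cells carried GFP and firefly luciferase, CT2A and GL261 had been cultured in serum, and 005 and Mut3 in neural stem cell medium with EGF and FGF-2. Each model is 1 cell line, so a difference between models is a difference between these lines in these mice.

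Oncofetal genes are active in the embryo, fall silent in most adult tissues and return in many cancers. LIN28A and LIN28B bind the precursors of let-7 microRNAs and block their maturation, while let-7 represses transcripts that include HMGA2, the IGF2BP genes and LIN28 itself. The IGF2BP proteins bind and stabilize mRNAs such as that of Myc, the HMGA proteins bend AT-rich DNA in chromatin, and MYC, MYCN and MYCL pair with MAX at E-boxes to drive growth genes. In developing brain, MYCN and HMGA2 are known from neural progenitors, and MYCN is also an oncogene of childhood brain tumors.

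The sequence that ties most of these genes together is the let-7 seed, shown here because 7 of the 10 genes hold its match in the longest 3′ UTR that GENCODE M21 gives them on GRCm38. All 9 mature members of the mouse let-7 family in RefSeq (GRCm38.p6) share bases 2 to 8, and 3 of them are given with that seed in capitals.

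mmu-let-7a-5p, chr13:48538239-48538260, minus strand: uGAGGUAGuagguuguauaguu

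mmu-let-7g-5p, chr9:106178846-106178867, plus strand: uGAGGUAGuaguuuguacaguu

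mmu-miR-98-5p, chrX:151913229-151913250, plus strand: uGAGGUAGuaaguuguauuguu

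The transcript letters complementary to this seed are CTACCTC, searched on the sense strand alone. Hmga2, Igf2bp1 and Lin28b each held 4 matches, Lin28a held 2, and Igf2bp2, Igf2bp3 and Hmga1 held 1 each. Myc, Mycn and Mycl held 0. Of 21027 genes with an annotated 3′ UTR, 9.02% held at least 1 match. Among genes with a 3′ UTR of like length, 4 or more matches were present in 0.134% for Hmga2, 0.355% for Igf2bp1 and 0.236% for Lin28b. The single match of Igf2bp2, Igf2bp3 and Hmga1 was less rare, being held by 12%, 13.3% and 8.08% of genes with a UTR of like length. The match was followed by A, the letter opposite the first base of the microRNA, in 1 of the 4 matches of Hmga2 and in 3 of the 4 of Igf2bp1. The 4 Hmga2 matches are printed with their flanks, beside those of Hmga1 and Igf2bp3, since these 3 genes hold a match and were called in at least 1 tumor against naïve brain. Capitals mark the seed match, and coordinates are on GRCm38.

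Hmga2 match 1, chr10:120364223-120364246, minus strand: gccgacattcaatttCTACCTCag

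Hmga2 match 2, chr10:120362986-120363009, minus strand: ccccactcctcaataCTACCTCtg

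Hmga2 match 3, chr10:120362548-120362571, minus strand: ctgatttgcaaggaaCTACCTCca

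Hmga2 match 4, chr10:120361690-120361713, minus strand: aatcaaaacacactaCTACCTCtt

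Hmga1 match, chr17:27563277-27563300, plus strand: tcctctgttcacaaaCTACCTCtg

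Igf2bp3 match, chr6:49086786-49086809, minus strand: tgcatttttactcaaCTACCTCag

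**Figure D1:**
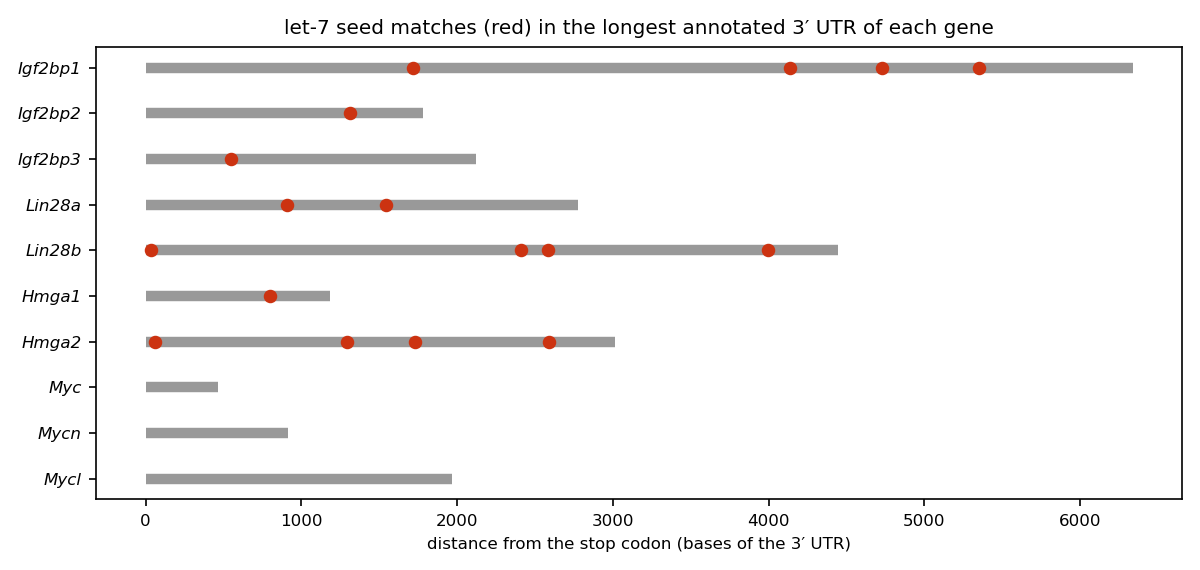
Grey bars show the longest annotated 3′ UTR of each of the 10 genes, drawn to scale in bases from the stop codon, and red points mark let-7 seed matches. Hmga2, Igf2bp1 and Lin28b have 4 points each, and the 3 MYC family genes have none.

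Total counts ran from 3105119 to 13130158 per library and were lowest in naïve brain, at 3105119 to 5161132. A count of 3 in 1 library was taken as the floor of detection, and it allows for counting error alone. It corresponded to 0.228 to 0.966 CPM, a count scaled to its library's size. That scaling used total counts, without the TMM normalization applied to the levels below, so levels cannot be set against it exactly. The replicates are separate mice, and p-values set a difference against the spread between mice, estimated from all 15 libraries together. The third 005 library stood apart. The summed CPM of 8 neuron markers was 3535 in it, against 208 and 583 in the other 005 libraries and 3894 to 6365 in naïve brain, and the sum of 6 cycling genes was 139, against 1207 and 1276. Several results that involve it are given with and without it, and the other 005 values include it. Neuron markers were present in the naïve tissue at those levels and were lowest in Mut3, at 59.9 to 148. In bulk tissue, fewer cells of a type and less RNA per cell cannot be told apart.

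Of the 10 genes, 8 had enough counts to be tested, and Lin28a and Lin28b did not. Levels between samples are given as CPM after TMM normalization, which is meant to adjust for differences in library size and composition. A gene was called when edgeR's quasi-likelihood test gave a Benjamini-Hochberg adjusted p under 0.05 over 17481 genes and the log2 fold change was at least 1 in size. Among the 8 tested genes, 5 were called in CT2A tumors against naïve brain, where 39.2% of all tested genes were called. GL261 tumors gave 3 calls against a background of 22.4%, 005 tumors 3 against 12.7%, and Mut3 tumors 2 against 37.8%. Counting genes whose 3 tumor libraries all lay above or all under the 3 naïve brain libraries, CT2A had 5 above and 2 under (27.7% and 28.5% of all tested genes), GL261 had 5 and 1 (23.7% and 24.1%), 005 had 4 and 1 (16.8% and 10.7%), and Mut3 had 3 and 4 (27.4% and 26.0%). For CT2A, GL261, 005 and Mut3 in that order, the median log2 fold change of the 8 genes was 1.30, 1.61, 1.54 and 0.50, beside medians over all tested genes of −0.04, −0.08, 0.01 and 0.11. Over the 5 groups together, edgeR's test of any difference passed for 6 of the 8 genes (Myc, Mycl, Mycn, Igf2bp2, Hmga1 and Hmga2), as it did for 52.1% of all tested genes. These 4 comparisons share the same naïve brain libraries.

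**Figure D2:**
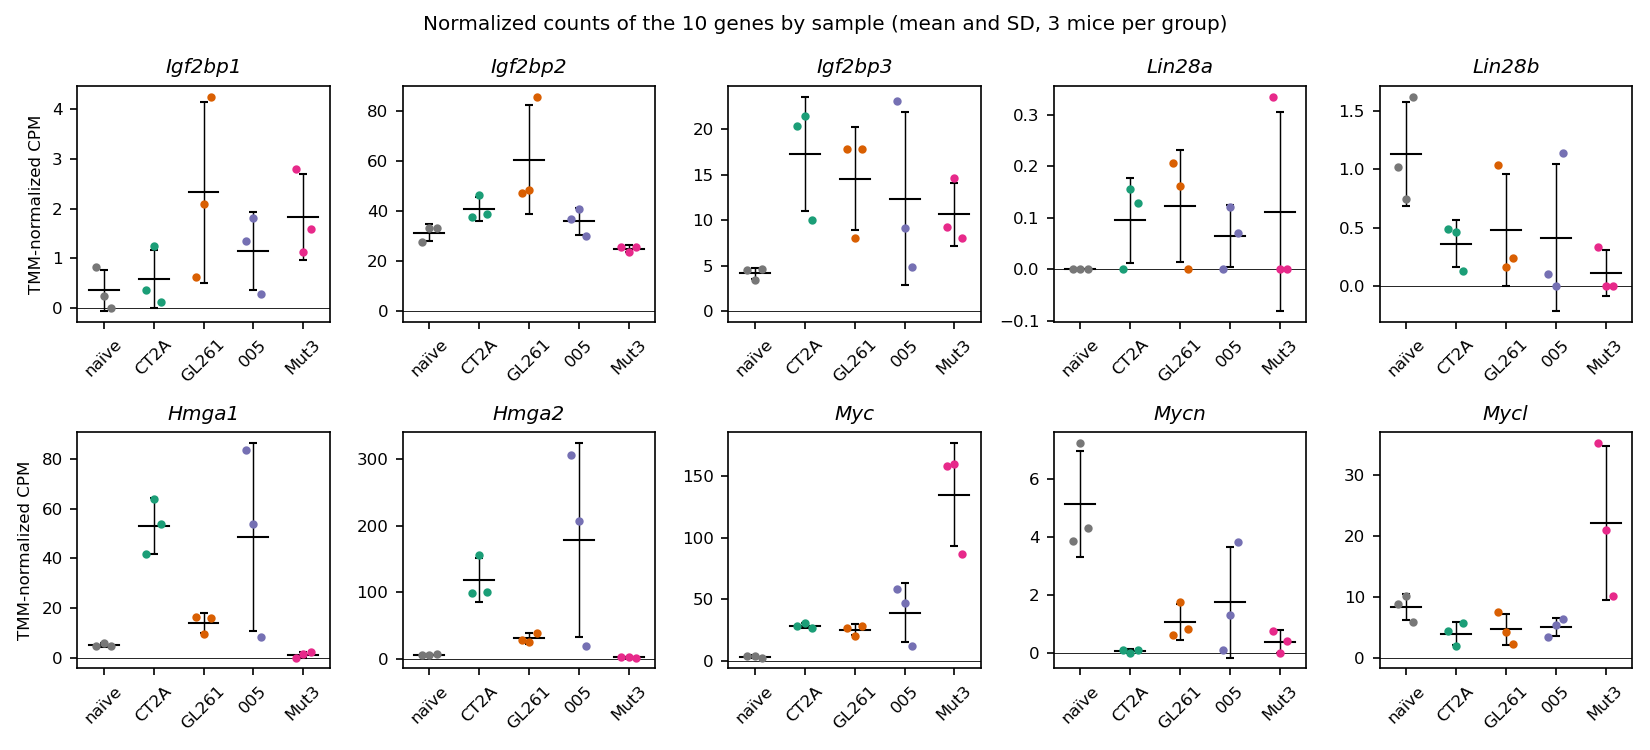
Each point is the TMM-normalized CPM of 1 library on a linear axis that differs between genes, the horizontal line is the group mean, and the bars are the SD over 3 mice. Hmga1 and Hmga2 are high in CT2A and in 2 of the 3 005 libraries, Myc and Mycl are high in Mut3, and Mycn is highest in naïve brain.

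Myc, the transcription factor that drives ribosome production and cell growth, was the 1 gene of the group called higher in all 4 tumors, which 5.23% of all tested genes were. Its level in naïve brain was 4.49, 3.99 and 2.70 CPM. CT2A tumors had 28.1, 31.1 and 26.7 CPM, and GL261 tumors had 26.9, 20.4 and 28.8 CPM. The ranges of these 2 tumors overlapped, and both lay above naïve brain. The 005 tumors had 58.2, 47.1 and 12.4 CPM, the last in the third library. Mut3 tumors had 158, 160 and 86.9 CPM, so that each Mut3 library lay above each other library. Against naïve brain, CT2A had a log2 fold change of 2.93 ± 0.49 (SE, edgeR adjusted p = 9.00e-04), GL261 of 2.75 ± 0.49 (0.00173), 005 of 3.38 ± 0.50 (0.00180) and Mut3 of 5.16 ± 0.53 (5.44e-05). Without the third 005 library, the change in 005 was 3.73 ± 0.34.

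Mycn, the family member of neural progenitors, went the other way. Naïve brain had 3.88, 7.22 and 4.33 CPM. CT2A tumors had 0.122, 0 and 0.129 CPM, which is 2 counts in all against 64 in naïve brain, a ratio of 56.8 with an exact 95% counting interval of 15.1 to 479 that leaves out the spread between mice. Mut3 tumors had 0.783, 0 and 0.440 CPM, or 12 counts. Both groups thus lay wholly under naïve brain. Mycn was called lower in CT2A (log2 fold change −5.63 ± 1.29, edgeR adjusted p = 0.00461) and in Mut3 (−3.58 ± 1.07, adjusted p = 0.0165). GL261 tumors had 0.622, 1.78 and 0.849 CPM and also lay under naïve brain, but the difference did not pass (−2.22 ± 1.01, adjusted p = 0.115). The 005 tumors had 0.103, 1.33 and 3.85 CPM, the last again in the third library, and the difference did not pass (−1.52 ± 0.96, adjusted p = 0.280). With that library left out it was −2.91 ± 1.10 (adjusted p = 0.0496), and over all alternatives that leave out a library or change a setting Mycn had the same sign. In Mut3, the call was lost without naïve brain replicate 2 (−3.09) or Mut3 replicate 3 (−3.63), with adjusted p up to 0.0554 over 23 alternatives.

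Mycl, the third family member, was expressed in naïve brain at 8.77, 10.2 and 5.95 CPM. CT2A tumors had 4.396, 1.86 and 5.68 CPM, GL261 tumors 7.46, 4.202 and 2.31, and 005 tumors 3.40, 5.31 and 6.41. The Mut3 tumors had 35.2, 21.01 and 10.1 CPM, the lowest of them just under the highest naïve brain library. None of the 4 comparisons with naïve brain passed. Mut3 came closest (log2 fold change 1.41 ± 0.54, edgeR adjusted p = 0.0506), and the values in CT2A, GL261 and 005 were −1.05 ± 0.55, −0.85 ± 0.55 and −0.72 ± 0.54. In Mut3, 10 alternatives put the change past the threshold, among them DESeq2 with 1.42.

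The make-up of the MYC family therefore differed between naïve brain and tumors. In TPM, a transcript abundance that takes gene length into account and so allows genes to be compared with each other, Mycl held 40.9% of the family's sum in naïve brain on average, Myc 31.5% and Mycn 27.6%. In tumors Myc held most of it, with 92.1% for CT2A, 87.8% for GL261, 85.0% for 005 and 91.4% for Mut3. The lowest Myc share of any tumor library was 66.2%, in the 005 group, and the highest of any naïve brain library was 37.0%. Mycn's share was at most 0.256% in CT2A and 0.285% in Mut3. The summed TPM of the family was 3.49 ± 1.67 (SD, n = 3) for naïve brain and 4.30 ± 0.515 for CT2A, 4.50 ± 0.898 for GL261, 7.21 ± 2.21 for 005 and 23.0 ± 7.61 for Mut3. Only the Mut3 range, 14.2 to 27.6, lay above the naïve brain range of 2.03 to 5.31 and above every other tumor library. TPM sums are not adjusted for composition between groups. On log2(TPM + 1), the median change of all tested genes against naïve brain was −0.33 in 005 to −0.54 in CT2A. Tumor sums can therefore read low beside naïve brain. Bmyc, a mouse gene related to Myc that lacks its DNA-binding part, was called lower in GL261 (−1.91 ± 0.55, edgeR adjusted p = 0.0248) and Mut3 (−3.74 ± 0.60, adjusted p = 5.95e-04). The retrogene Mycs had 1 count in each of 2 libraries and none elsewhere.

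**Figure D3:**
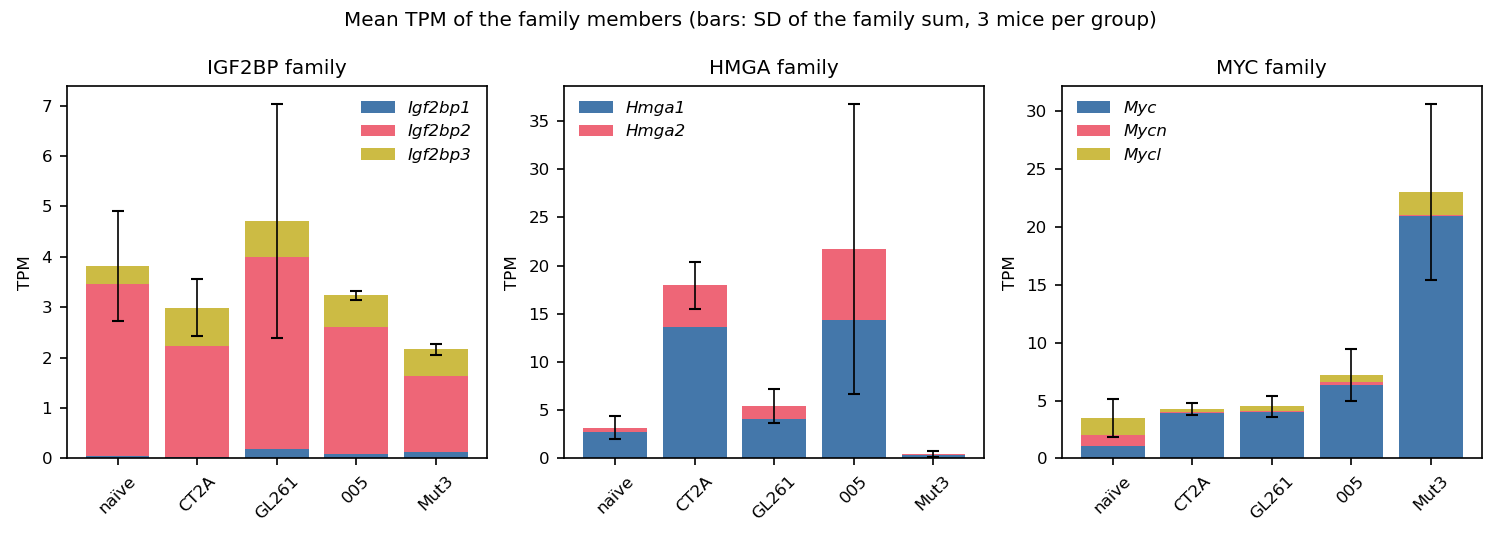
Stacked bars give the mean TPM of each family member in the 5 groups, and error bars give the SD of the family sum over 3 mice. The MYC sum is largest in Mut3 at 23.0 TPM, nearly all of it Myc. The HMGA sum, which leaves out the Hmga1 copy Hmga1b, is 17.97 TPM in CT2A, 21.8 in 005 and 0.467 in Mut3.

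Hmga2, an embryonic chromatin protein and a classic let-7 target, covered the widest range of the group. Naïve brain had 5.10, 5.98 and 7.03 CPM. CT2A tumors had 99.2, 157 and 99.98 CPM, GL261 tumors 28.2, 24.7 and 39.6, and 005 tumors 307, 208 and 20.01. All 9 of these libraries lay above naïve brain, although the third 005 library lay far under the other 005 libraries. Mut3 tumors had 3.36, 3.02 and 1.67 CPM, all under naïve brain. Relative to naïve brain, 005 rose by 4.89 ± 0.73 on the log2 scale (edgeR adjusted p = 0.00182), CT2A by 4.30 ± 0.71 (8.70e-04) and GL261 by 2.35 ± 0.67 (0.0226), while Mut3 did not pass (−1.17 ± 0.68, 0.185). The GL261 call was lost when any 1 naïve brain library (2.25 to 2.50) or GL261 replicate 3 (2.05) was left out, and on both TPM scales (0.66 and 1.14), with adjusted p from 2.42e-04 to 0.268 over 25 alternatives. Without the third 005 library the values were 5.35 ± 0.38 in 005 and −1.19 ± 0.35 in Mut3, and the latter then passed (adjusted p = 0.0129).

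Hmga1, which encodes the other AT-hook protein of this family, followed a like order. Naïve brain had 4.69, 5.98 and 4.87 CPM, CT2A tumors 41.6, 64.0 and 53.7, GL261 tumors 16.4, 9.54 and 16.0, and 005 tumors 83.4, 53.8 and 8.54. Mut3 tumors had 0, 1.38 and 2.29 CPM. The CT2A, GL261 and 005 libraries all lay above naïve brain and the Mut3 libraries all lay under it. Hmga1 was called in CT2A (3.36 ± 0.82, edgeR adjusted p = 0.00621) and 005 (3.23 ± 0.81, 0.0181), and did not pass in GL261 (1.43 ± 0.78, 0.182) or Mut3 (−2.04 ± 0.84, 0.0669). Without the third 005 library the change was 3.66 ± 0.65 in 005, and that in Mut3 passed (−2.03 ± 0.65, 0.0207). The Mut3 change also passed without Mut3 replicate 3 (−2.94), without a filter on low counts (−2.02), with DESeq2 (−2.02) and on both TPM scales (−1.46 and −2.02). The 005 call was lost without naïve brain replicate 1 (3.16) or 3 (3.19), without 005 replicate 1 (2.59), and in a fit of these 2 groups alone (3.30), with adjusted p up to 0.0779 over 24 alternatives.

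Hmga1 counts are uncertain because Hmga1b, a near-identical copy elsewhere in the genome, shares 1403 stretches of 50 bases with it. Hmga1b received 71.0 estimated counts in CT2A replicate 1, 40.6 in GL261 replicate 2, and 22.1 and 24.6 in Mut3 replicates 1 and 2, and under 3 in each other library. Summing both genes raised Mut3 to between 2.29 and 4.53 CPM, still under the 4.69 to 5.98 of naïve brain. The log2 fold change there went from −2.04 to −0.75 ± 0.59 and did not pass (edgeR adjusted p = 0.324). In GL261 the summed change was 1.64 ± 0.58 and did not pass either (edgeR adjusted p = 0.0512). The summed changes in CT2A and 005, 3.43 ± 0.60 and 3.23 ± 0.60, were close to those of Hmga1 alone. AI413582, which overlaps the end of Hmga1 on the opposite strand and shares 53 such stretches, was also lower in Mut3 than in naïve brain (−2.28 ± 0.32, edgeR adjusted p = 3.15e-04), and its part in the Hmga1 values was not tested.

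Per length, Hmga1 was the more abundant HMGA gene where both were well detected, with a mean share of the family's TPM of 85.5% for naïve brain, 75.9% for CT2A, 75.8% for GL261 and 68.3% for 005. In Mut3 the Hmga1 share ran from 0 to 90.4% between libraries, the 0 being in replicate 1, where Hmga1b received 22.1 counts. The family sum was 3.20 ± 1.21 TPM for naïve brain (SD, n = 3), 17.97 ± 2.44 for CT2A, 5.42 ± 1.74 for GL261, 21.8 ± 15.03 for 005 and 0.467 ± 0.299 for Mut3. The Mut3 maximum of 0.728 TPM was under the naïve brain minimum of 2.396. These sums leave out Hmga1b and carry the limit of TPM between groups given for the MYC family. With Hmga1b counts added, Hmga1 had 2.29 to 4.53 CPM in Mut3 against 4.69 to 5.98 in naïve brain, a much smaller gap.

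**Figure D4:**
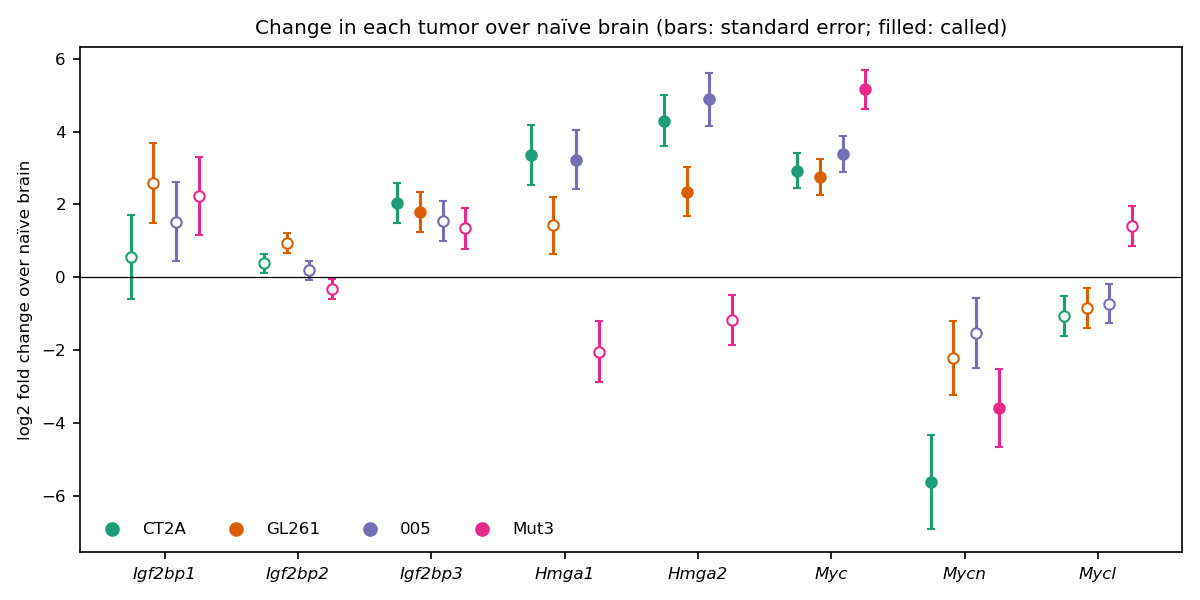
Points show the log2 fold change of each of the 8 tested genes in 4 tumors over naïve brain and bars the standard error from edgeR, with filled points for called changes. Myc is filled in all 4 tumors, Hmga2 in CT2A, GL261 and 005, and Mycn in CT2A and Mut3 under the zero line.

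Among the tested RNA-binding genes, Igf2bp3 was the only one called against naïve brain. Its product binds RNA in the embryo and in carcinomas and is scarce in adult tissue. Naïve brain had 4.49, 3.49 and 4.60 CPM, CT2A 20.4, 21.4 and 10.1, GL261 17.8, 8.08 and 17.8, 005 23.1, 9.18 and 4.84, and Mut3 9.29, 14.6 and 8.09. Every tumor library lay above every naïve brain library, the third 005 library by the least. Igf2bp3 was called in CT2A (2.04 ± 0.55, edgeR adjusted p = 0.0104) and GL261 (1.79 ± 0.55, 0.0316), and did not pass in 005 (1.55 ± 0.55, 0.0748) or Mut3 (1.34 ± 0.55, 0.0626). Without the third 005 library it passed in both, at 1.87 ± 0.50 (0.00889) and 1.32 ± 0.46 (0.0307). The CT2A call was lost on TPM over nuclear protein-coding genes (0.76). The GL261 call was lost on that scale too (0.66) and without any 1 naïve brain library (1.82 to 1.87), GL261 replicate 1 (1.75) or GL261 replicate 3 (1.54), with adjusted p from 0.00753 to 0.114 over 24 alternatives.

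Igf2bp3 ends inside Malsu1 on the opposite strand, with 1480 shared stretches of 50 bases, and whether counting used strand was not given in the sources used here. Malsu1, a gene for a mitochondrial ribosome factor, had means of 7.99 CPM for naïve brain, 6.18 for CT2A, 11.9 for GL261, 11.5 for 005 and 14.3 for Mut3, and was called in none of the 4 comparisons. Its part in the Igf2bp3 values was not tested.

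Igf2bp2, the member that stays on in adult tissues, was the most abundant of its family in every library. Naïve brain had 27.5, 33.4 and 33.3 CPM, CT2A 37.6, 46.3 and 38.6, GL261 47.3, 48.3 and 85.5, 005 36.7, 40.8 and 29.9, and Mut3 25.6, 23.5 and 25.8. GL261 lay above and Mut3 under all other groups without overlap. The GL261 difference from naïve brain had an adjusted p of 0.0252 in edgeR but a log2 fold change of 0.94 ± 0.27, under the threshold. The differences in CT2A (0.38 ± 0.27) and 005 (0.19 ± 0.27) changed sign on both TPM scales, and the one in Mut3 was −0.33 ± 0.27. Igf2bp2 held 69.8% to 89.2% of the family's TPM on average in the 5 groups, highest in naïve brain and lowest in Mut3, while the share of Igf2bp3 was 9.57% in naïve brain and 16.1% to 24.7% in the tumors.

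Igf2bp1, which protects the Myc mRNA in embryonic cells, was low, with 5 to 52 counts in all per group. It had 0.816, 0.249 and 0 CPM in naïve brain and 0.366, 1.24 and 0.129 in CT2A. It had 0.622, 2.10 and 4.25 CPM in GL261, 1.34, 1.81 and 0.285 in 005, and 2.80, 1.13 and 1.58 in Mut3. Mut3 alone did not overlap naïve brain. No comparison passed, and the largest change was 2.59 ± 1.09 in GL261 (edgeR adjusted p = 0.0913). The counts behind it were 51 in GL261 and 5 in naïve brain.

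The LIN28 genes, which hold let-7 down in stem cells, were hardly detected. Lin28a had 0 counts in all naïve brain libraries and 2 or 3 counts in total in each tumor group, so no difference was detectable at this depth. Lin28b had 1.02, 0.747 and 1.62 CPM in naïve brain, from 14 counts. CT2A tumors had 0.489, 0.466 and 0.129 CPM, GL261 tumors 1.04, 0.162 and 0.243, 005 tumors 0.103, 0 and 1.14, and Mut3 tumors 0.336, 0 and 0. The CT2A and Mut3 libraries lay under all naïve brain libraries, while 1 GL261 library and the third 005 library fell within their range. The ratio of naïve brain to Mut3 was 10.5, with an exact 95% counting interval of 2.92 to 56.7 from 14 and 3 counts. For CT2A it was 3.1 (1.22 to 8.54), for GL261 2.67 (1.05 to 7.35) and for 005 2.09 (0.955 to 4.51), an interval that includes 1.

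Between tumors, the design asks how the 4 models differ. Of the 48 gene and pair combinations, 13 were called, beside 10.7% over all tested genes, and all 13 set another tumor against Mut3. There were 4 calls in CT2A against Mut3 (12.8% of all tested genes were called), 5 in GL261 against Mut3 (17.2%) and 4 in 005 against Mut3 (19.8%). These 3 comparisons share the Mut3 libraries. CT2A against GL261 gave 0 calls where 7.77% of tested genes were called, CT2A against 005 0 with 4.11%, and GL261 against 005 0 with 2.62%. At an unadjusted p under 0.05, edgeR gave 3 genes in CT2A against GL261, 1 in CT2A against 005 and 3 in GL261 against 005, and DESeq2 called 1 in each pair (Hmga2, Mycn and Hmga2).

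Hmga2 was higher than in Mut3 by a log2 difference of 5.47 ± 0.75 for CT2A, 3.53 ± 0.70 for GL261 and 6.06 ± 0.77 for 005 (edgeR adjusted p = 4.07e-04, 0.00464 and 3.60e-04). Hmga1 was higher by 5.39 ± 0.90, 3.47 ± 0.85 and 5.26 ± 0.90 (0.00146, 0.0140 and 0.00212). With Hmga1b counts added, the Hmga1 differences were 4.18 ± 0.61, 2.39 ± 0.58 and 3.97 ± 0.61, and each still passed. Genes called lower in Mut3 than in each of the other 3 tumors made up 2.75% of all tested genes, and Hmga1 and Hmga2 were among them. On log2(TPM + 1) the GL261 difference of Hmga2 was 1.04 and no longer passed.

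Myc and Mycl were on the other side, both called higher in Mut3 than in each of the other 3 tumors, as were 1.60% of all tested genes. Myc differed by −2.24 ± 0.45 in CT2A, −2.41 ± 0.45 in GL261 and −1.78 ± 0.44 in 005 against Mut3 (edgeR adjusted p = 0.00490, 0.00360 and 0.0133). Mycl differed by −2.46 ± 0.56, −2.26 ± 0.56 and −2.13 ± 0.55 (0.00969, 0.0146 and 0.0156). The Mycl calls depended on single libraries. Without Mut3 replicate 1, the library with the most Mycl, the differences were −1.86, −1.64 and −1.57 and none passed. The CT2A call was also lost without CT2A replicate 2 (−2.03), the GL261 call without GL261 replicate 2 (−2.20) or 3 (−1.99), and the 005 call in a fit of these 2 groups alone (−2.08) and on log2(TPM + 1) (−0.88). Without Mut3 replicate 1 the Myc difference of 005 was −1.56 and did not pass, nor did it in a fit of these 2 groups alone (−1.75). Igf2bp2 was higher in GL261 than in Mut3 by 1.27 ± 0.28 (adjusted p = 0.00748), which fell to 0.86 without GL261 replicate 3, the library with 85.5 CPM, and then did not pass.

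**Figure D5:**
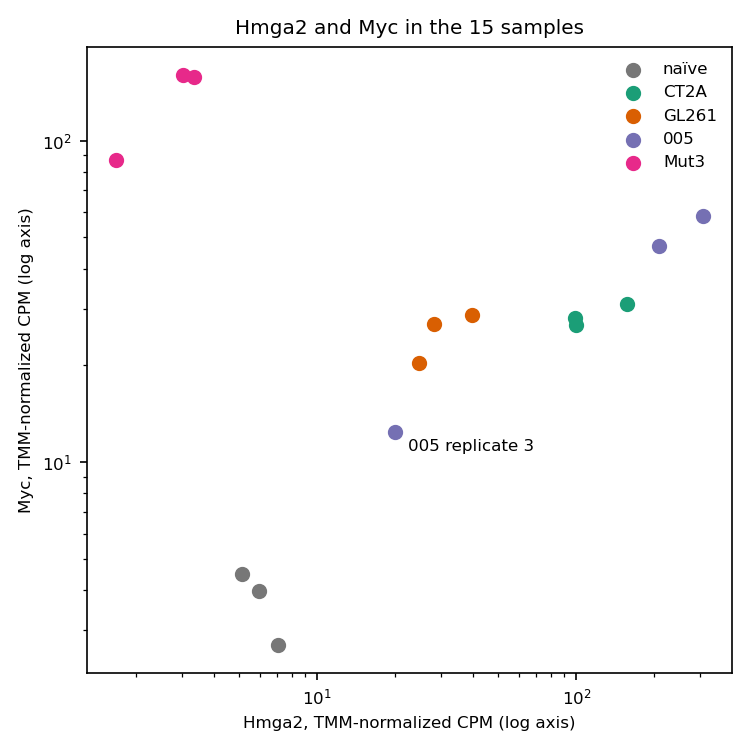
Each point is 1 library, with Hmga2 on the horizontal and Myc on the vertical log axis, both as TMM-normalized CPM. Mut3 libraries combine the highest Myc, 86.9 to 160 CPM, with Hmga2 of 1.67 to 3.36 CPM, naïve brain is low in both, and the third 005 library lies between naïve brain and the other 005 libraries.

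Neither HMGA gene passed between CT2A and 005. The log2 difference was 0.13 (95% interval −1.42 to 1.67) for Hmga1 and −0.59 (−1.89 to 0.71) for Hmga2, intervals that leave room for a difference of more than 2-fold. Without the third 005 library, the Hmga2 difference was −1.09 ± 0.33 (edgeR adjusted p = 0.0778), and both remaining 005 libraries, at 208 and 307 CPM, lay above the 99.2 to 157 CPM of CT2A. GL261 was lower than CT2A in every library, by 1.93 ± 0.76 for Hmga1 and 1.94 ± 0.63 for Hmga2, without passing in edgeR (adjusted p = 0.136 and 0.0744). With the third 005 library left out of the fit, these differences were 1.97 ± 0.56 and 1.98 ± 0.31 and both passed (0.0326 and 9.51e-04). GL261 against 005 likewise went from −1.80 ± 0.75 and −2.53 ± 0.64, neither passing, to −2.31 ± 0.60 and −3.07 ± 0.34, both passing (0.0368 and 1.15e-04). Myc did not pass between any of these 3 tumors, with differences of 0.17, −0.45 and −0.63 for CT2A against GL261, CT2A against 005 and GL261 against 005.

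The other genes of these pathways were taken from lists of their known members. Of 20 known MYC targets, 19 were tested, and all that were called against naïve brain were higher. The called targets were 14 for CT2A, 9 for GL261, 10 for 005 and 12 for Mut3, where 39.2%, 22.4%, 12.7% and 37.8% of all tested genes were called in either direction, with medians of 1.64, 1.24, 1.53 and 1.59 on the log2 scale beside −0.04, −0.08, 0.01 and 0.11 for all tested genes. Cdk4, the kinase that opens S phase, changed by 3.25 ± 0.55, 2.65 ± 0.54, 3.18 ± 0.55 and 3.18 ± 0.55. Npm1, a ribosome assembly protein of the nucleolus, changed by 2.97 ± 0.44, 1.88 ± 0.42, 1.58 ± 0.42 and 2.42 ± 0.43, and Odc1, the first enzyme of polyamine synthesis, by 1.64 ± 0.50, 1.70 ± 0.50, 2.68 ± 0.51 and 1.59 ± 0.50. Cycling genes moved with these groups, with summed CPM of 31.0 to 47.9 for naïve brain, 902 to 1444 for CT2A, 689 to 856 for GL261, 139 to 1276 for 005 and 981 to 2060 for Mut3, and their part in the target changes was not tested. Against Mut3, where 12.8%, 17.2% and 19.8% of all tested genes were called, 1 of the 19 targets was called for CT2A, 2 for GL261 and 1 for 005. These were Srm in CT2A (−1.34 ± 0.32) and GL261 (−1.08 ± 0.32), Polr1b in GL261 (−1.41 ± 0.46) and Ldha in 005 (−1.29 ± 0.36), all higher in Mut3.

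The MAX network holds the partners and rivals of MYC. Of its 10 tested genes, edgeR called 2 in CT2A and 2 in Mut3, beside 39.2% and 37.8% of all tested genes. Mxd3 was called higher in CT2A (1.62 ± 0.62) and Mut3 (2.68 ± 0.63). Mxd4, which represses MYC sites, was called lower in CT2A (−2.11 ± 0.65), and the repressor Mnt lower in Mut3 (−2.37 ± 0.60). The naïve brain level of Mxd4 varied widely between mice, at 26.2 ± 21.8 CPM (SD, n = 3), against 6.06 ± 2.10 in CT2A. Max itself differed from naïve brain by −0.15 ± 0.33 for CT2A, 0.26 ± 0.33 for GL261, 0.20 ± 0.32 for 005 and −0.21 ± 0.33 for Mut3. In GL261 and in 005 edgeR called 0 of the 10, with 2 at an unadjusted p under 0.05 in each, and DESeq2 called 0 and 2, where edgeR called 22.4% and 12.7% of all tested genes.

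On the let-7 side, 0 of 8 genes of microRNA processing and let-7 decay, among them Dicer1, Drosha, Dis3l2 and the uridylating enzyme Tut4, were called in edgeR in any of the 4 comparisons with naïve brain. At an unadjusted p under 0.05 there was 1, Tut4 in Mut3 (0.98 ± 0.34, edgeR adjusted p = 0.0318, under the fold threshold), which DESeq2 called, and 0 in the others by either tool. The let-7 precursor genes had at most 3 counts in any library, so their level was not measured by these libraries. Of 13 other let-7 targets, edgeR called 6 higher and 1 lower for CT2A, 4 and 1 for GL261, 4 and 0 for 005, and 4 and 2 for Mut3, beside 39.2%, 22.4%, 12.7% and 37.8% of all tested genes called in either direction. Their medians were 1.12, 1.16, 1.12 and 1.01 on the log2 scale, beside −0.04, −0.08, 0.01 and 0.11 for all tested genes. Cdk6, a kinase of the G1 phase, was higher in all 4 (4.13 ± 0.58, 3.76 ± 0.57, 3.93 ± 0.58 and 3.93 ± 0.58), as was Nras (2.23 ± 0.32, 1.25 ± 0.31, 1.12 ± 0.31 and 1.28 ± 0.31). Against Mut3, 2 of the 13 were called for CT2A, 3 for GL261 and 2 for 005, all higher than in Mut3, where 12.8%, 17.2% and 19.8% of all tested genes were called, and the medians were 0.20, −0.17 and 0.40. The cyclin genes Ccnd1 and Ccnd2 were called for all 3, and Arid3a for GL261 alone (3.25 ± 1.01). Arid3a had 7.10 ± 9.64 CPM in GL261 (SD, n = 3), a spread wider than its mean, against 0.729 ± 0.518 in Mut3. Ccnd1 differed by 2.05 ± 0.60, 1.90 ± 0.60 and 2.58 ± 0.61, and Ccnd2 by 2.51 ± 0.72, 3.59 ± 0.75 and 3.97 ± 0.76.

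Transcripts known to be bound by IGF2BP proteins did not move as 1 group. Cd44, an adhesion receptor, was called higher in all 4 tumors, by 4.88 ± 0.56 for CT2A, 3.21 ± 0.52 for GL261, 4.24 ± 0.55 for 005 and 2.21 ± 0.51 for Mut3. Igf2, the growth factor that named the family, was lower in CT2A (−3.12 ± 0.77) and Mut3 (−3.65 ± 0.79). The imprinted RNA H19 rose to 971 ± 307 CPM in GL261 (SD, n = 3) from 6.74 ± 2.24 in naïve brain, a log2 fold change of 7.17 ± 0.62, and was also higher in Mut3 (3.57 ± 0.54).

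Other high mobility group genes did not share the low level of Hmga1 and Hmga2 in Mut3. Of 7 tested, 6 were called higher than naïve brain in Mut3 and in CT2A, and 1 in GL261 and in 005. Genes called in either direction were 37.8% and 39.2% of all tested genes in Mut3 and CT2A, and 22.4% and 12.7% in GL261 and 005. Hmgb2, a chromatin protein of dividing cells, rose by 3.32 ± 0.48 for CT2A, 4.47 ± 0.50 for GL261, 3.20 ± 0.48 for 005 and 5.03 ± 0.52 for Mut3. Hmgn2, which binds nucleosomes, was higher in Mut3 than in CT2A, GL261 and 005, with log2 differences of −1.33 ± 0.26, −1.64 ± 0.26 and −2.0 ± 0.26 against Mut3. Of 5 pluripotency genes, 2 were tested, and Dppa4 reached 31.4 ± 8.45 CPM in GL261 (SD, n = 3) from 0.0830 ± 0.144 in naïve brain, while Nanog, whose counts can include those of pseudogenes, was lower in GL261 (−1.30 ± 0.38).

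The genes whose pattern over the 15 libraries was nearest to each member are given as a description, measured by the root mean square difference of log2 CPM after centring each gene. For Hmga2 these were Myof (0.58, where Hmga2 itself had a spread of 2.31), Hoxd8 (0.73) and Tfap2a (0.82). Hmga1 was nearest to Tfap2a and Tm4sf1 (0.93 each, spread 2.23). Myc was nearest to Skap2 (0.48, spread 1.69) and to AV099323 and Kif18b (0.56 each). Mycn was nearest to Zbtb45 (0.62, spread 1.56), Dgkh (0.63) and the neuronal kinase gene Brsk2 (0.64). For Mycl, Igf2bp1, Igf2bp2 and Igf2bp3, whose spreads were 1.02, 1.13, 0.46 and 0.85, the nearest genes were Btg2 (0.50), Gtf3a (0.63), Gm12792 (0.19) and Rpl31-ps17 (0.40).

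The E-box CACGTG, the DNA letters that MYC and MAX bind and which read the same on both strands, was searched in the RefSeq promoters (GRCm38.p6, from 250 bases before to 50 after the start) of the 8 member genes listed there. It was present at 2 positions in Igf2bp3 and at 1 in Lin28b, and 7.15% of 32851 promoters held it. Those of Igf2bp2, Lin28a, Hmga1, Hmga2, Mycn and Mycl did not hold these letters. The Igf2bp3 windows are shown with the E-box in capitals as the tested member whose promoter holds it, and a match is a description and not a binding site. They lie within chr6:49214905-49215204 on the minus strand, at positions −23 and 5 from the start.

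Igf2bp3 E-box at −23: gctgggattcctCACGTGagacgttgattt

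Igf2bp3 E-box at 5: ttgtagtttgaaCACGTGgctcattcaaaa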

How the data were processed

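RNA-seq libraries were made from 50 ng of total RNA from 15 samples. The authors aligned reads with STAR 2.4.2a to the GENCODE mouse genome (mm10 per the submitters' processing notes, which also list Salmon and DESeq2 1.18.1) and deposited expected counts, which are estimated and not normalized, and TPM, scaled to gene length and to one total per library. The strand setting and annotation release were not given in the sources used here. Nuclear protein-coding genes held 33.6% to 41.9% of TPM, so CPM was used between samples, and TPM between genes and for the family sums. Expected counts were rounded, and edgeR 4.0.16 was run in R 4.3.3 (filterByExpr with a minimum count of 10, TMM, quasi-likelihood fit of all 15 samples with a mean per group and no covariate). Fits of the compared groups alone, DESeq2 1.42.0, limma 3.58.1 on log2(TPM + 1), other filters and scalings, and leaving out each library, were tried as alternatives. TPM over nuclear protein-coding genes and the summing of Hmga1 with Hmga1b were added after seeing the data. SEs are the log2 fold change over the root of the F statistic. The steps were tested on simulated data. Of 46679 identifiers, 46269 matched GENCODE M21 (GRCm38). Named genes were the 10 members, the list and marker genes, and the 3 tested genes nearest to each tested member. The members, lists and tests were chosen with earlier results of these data known.

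Replicate numbers do not pair the mice of different groups. Over 30 pairs of samples with the same number, the correlation of deviations from the group means had a median of −0.0199, and 1 was over 0.1. Protein sequences were not used here, and some genes of the lists and some alleles of the lines are not reported here.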

Additional observations from a re-analysis of the deposited data

Results flagged for a closer look

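The 13 called differences between tumors were flagged because the change over naïve brain differed between models by a test of the difference itself, edgeR's contrast of the 2 tumors. Against Mut3, CT2A differed by −2.24 for Myc, −2.46 for Mycl, 5.39 for Hmga1 and 5.47 for Hmga2 on the log2 scale. GL261 differed from Mut3 by −2.41 for Myc, −2.26 for Mycl, 1.27 for Igf2bp2, 3.47 for Hmga1 and 3.53 for Hmga2. For 005 the differences from Mut3 were −1.78 for Myc, −2.13 for Mycl, 5.26 for Hmga1 and 6.06 for Hmga2. All 13 involve the 3 Mut3 libraries. With 3 mice per group, single libraries were not tested as outliers.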

How the results depend on the processing

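The 26 called fold changes kept their direction under every alternative run. Leaving out 1 library kept 368 of 390 values past the threshold, and the other settings kept 239 of 249. The number of genes called in CT2A was 3 when at least 10 counts were required in every sample and on log2(TPM + 1), against 5. In GL261 it was 6 in a fit of the compared groups alone and 1 on log2(TPM + 1), against 3. In Mut3 it was 4 in a fit of the compared groups alone and 5 with DESeq2, against 2. The cause was not tested, except that fewer genes were testable under the stricter filter and on log2(TPM + 1), 5 in each against 8. Leaving out 1 library gave 5 to 5 calls in CT2A, 1 to 4 in GL261, 2 to 5 in 005, 2 to 6 in Mut3, 9 to 17 over the pairs of tumors and 5 to 7 over the 5 groups. The 1 in GL261 came without naïve brain replicate 1 or 3 or GL261 replicate 3, and the 5 in 005 and 6 in Mut3 came without 005 replicate 3. With the replicate number as a block the counts were 5, 3, 3 and 2 against naïve brain, 13 between tumors and 6 over the 5 groups, as without it, and 2 of the 15 samples correlated best with their own number.

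On the TPM scales the median of all tested genes against naïve brain was −0.33 to −0.60, beside −0.08 to 0.11 in the reported CPM fit, and by library size alone it was −0.24 in CT2A. On log2(TPM + 1) and on TPM over nuclear protein-coding genes, the change of Igf2bp2 was −0.45 and −0.30 in CT2A and −0.31 and −0.27 in 005, opposite in sign to CPM. Other reversals were of differences that were not called and came from leaving out 1 library. Their ranges were −0.46 to 2.02 for Igf2bp1 in CT2A against naïve brain, −0.48 to 0.90 for Igf2bp1 in GL261 against Mut3, −0.60 to 0.55 for Igf2bp3 in 005 against Mut3, and −0.34 to 0.77 for Hmga1 and −1.09 to 0.06 for Hmga2 in CT2A against 005. Depth limits Lin28a, Lin28b, Igf2bp1 in naïve brain, and Mycn in CT2A and Mut3, which had few counts.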
